A study of Homo sapiens with 4 samples.

Results

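The genes described here encode the heterogeneous nuclear ribonucleoproteins (hnRNP proteins) and the serine/arginine-rich (SR) splicing factors. They were chosen by name, 20 hnRNP genes and 12 SR genes, and each of the 32 symbols matched 1 of the 69222 gene rows of the count tables. All 32 had enough counts to be tested. Messenger RNA was counted in 4 libraries of HEK293T, a line of human embryonic kidney cells with the SV40 large T antigen. The 2 shCtrl libraries came from cells given a control short hairpin RNA by lentivirus, and the 2 shRPRD1B libraries from cells given a hairpin against RPRD1B the same way. RPRD1B binds the phosphorylated tail of the largest RNA polymerase II subunit. No line was described as a single clone, and nothing in the labels ties the replicates to separate cultures, so the p-values below measure a spread between libraries that may be technical.

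hnRNP proteins coat nascent transcripts and often silence nearby exons, while SR proteins bind exonic enhancers through RNA recognition motifs and recruit the splicing machinery through arginine/serine-rich domains. The families often act against each other at the same exon, and their relative amounts shift splice site choice. Many genes of both families limit their own mRNA through exons whose inclusion exposes the transcript to nonsense-mediated decay. Counts per gene do not separate such isoforms, so the values below are sums over all transcripts of a gene.

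The libraries held between 47732913 and 65572391 counts. RPRD1B stood at 50.4 and 50.1 CPM (counts per 1000000 of the scaled library) in the control libraries and at 27.2 and 35.5 CPM in the knockdown libraries, a log2 fold change of -0.68 ± 0.16 (SE). It passed with DESeq2 (adjusted p = 0.0467) and not with edgeR's quasi-likelihood test, the main test (Benjamini-Hochberg adjusted p = 0.448). The summed level of 6 genes expected in HEK293 cells (VIM, KRT8, KRT18, PAX2, CDH2 and NEFM) lay between 423 and 493 CPM, lowest in shRPRD1B 2, with none of the genes at 0. In that library KRT8 stood at 6.46 CPM, against 22.9 to 27.1 CPM in the others, and PAX2 at 5.82 CPM, against 7.51 to 11.4 CPM. VIM, KRT18 and NEFM were also lowest in that library, while CDH2 was highest there, at 129 CPM against 88.7 to 97.3 CPM. The summed level of 6 fibroblast genes was 38.0 and 33.6 CPM in shCtrl and 24.5 and 22.2 CPM in shRPRD1B, with COL1A2 at 0 in every library. Most of that sum was COL1A1, at 32.9 and 27.3 CPM in shCtrl and 20.1 and 19.4 CPM in shRPRD1B. Of the 4 fibroblast genes tested, COL1A1 and LUM were lower in both knockdown libraries and COL3A1 overlapped. PDGFRB was higher in both, at 0.633 and 0.616 CPM in shCtrl and 1.13 and 0.639 CPM in shRPRD1B. The part of these markers in the members' values was not tested, and in bulk RNA fewer cells of a type cannot be told apart from less RNA per cell. A sum over 6 leukocyte genes was at most 1.47 CPM.

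One member stood apart from the other 31. HNRNPA0 was lower in both knockdown libraries, at 0.481 times its control level, while the other 29 members with a mean of at least 5 CPM had fold changes between -0.36 and 0.46 on the log2 scale. edgeR called none of the 32 members at an adjusted p under 0.05, and it called 0.0689% of the 20319 genes tested in either direction. DESeq2 called 1 member lower, HNRNPA0, and none higher, against 0.561% of all genes called lower, and limma voom called none. At an unadjusted edgeR p under 0.05 there was 1 member lower, HNRNPA0 (3.94% of all genes), and 1 higher, SRSF5 (3.55% of all genes). limma voom gave 3 members at an unadjusted p under 0.05, where 7.13% of all genes had one. Both knockdown libraries lay above both control libraries for 12 members, 8 hnRNP and 4 SR genes, where 20.3% of all genes did so, and below them for 6 members, 5 hnRNP genes (HNRNPL among them, with at most 11 counts) and 1 SR gene, where 20.6% did.

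HNRNPA0 encodes an A/B-type hnRNP protein that binds AU-rich elements in mRNA and is a substrate of the stress kinase MK2. The gene (ENSG00000177733.7) lies on the minus strand of chromosome 5, from 137745651 to 137754376 in GRCh38, and its annotated transcript has 1 exon of 8726 bases, of which 7498 are 3′ UTR. The control libraries held 396 and 396 CPM of it, and the knockdown libraries 182 and 199 CPM. The groups did not overlap, and the libraries within each group were close to each other. The means were 396 ± 0.418 and 191 ± 11.6 CPM (SD, n = 2 each). The log2 fold change was -1.05 ± 0.11, with a 95% interval from -1.33 to -0.78. With edgeR its unadjusted p was 9.91e-05 and its adjusted p 0.0775, with limma voom the adjusted p was 0.115, and with DESeq2 the adjusted p was 2.18e-10. Over the alternatives run, the edgeR adjusted p went from 4.14e-08 to 0.356 while the log2 fold change stayed between -1.12 and -0.99. The adjusted p was 0.356 without shCtrl 1, 0.326 without shCtrl 2, 1.23e-07 without shRPRD1B 1 and 4.14e-08 without shRPRD1B 2, where the single library left in a group takes its spread from the other group.

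**Figure D1:**
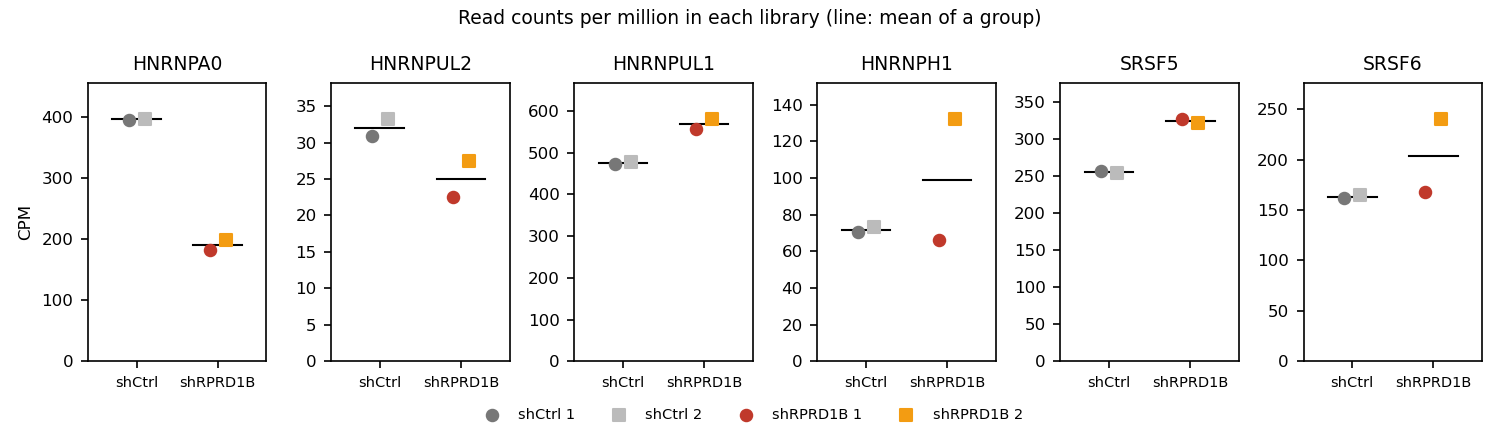
CPM of 6 members in each library, with shCtrl 1 as dark grey circles, shCtrl 2 as light grey squares, shRPRD1B 1 as red circles, shRPRD1B 2 as orange squares and a line at the mean of each group; every vertical axis starts at 0. HNRNPA0 lay near 396 CPM in both control libraries and at 182 and 199 CPM in the knockdown libraries, while HNRNPH1 and SRSF6 were raised in shRPRD1B 2 and near the control level in shRPRD1B 1.

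The 3′ UTR of HNRNPA0 holds the 6-base word ACTAGC at 2 places. An earlier analysis of these same libraries picked out this word for being common among lower transcripts, so its presence is a description and supports nothing by itself. Only sites in which an A follows the word are shown, for HNRNPA0 and for other members. They are printed with the word in capitals and 12 bases on either side, as the transcript reads in GENCODE 29. The first HNRNPA0 site lies at chr5:137752845-137752874 and the second at chr5:137748469-137748498, both on the minus strand of GRCh38. The SRSF8 site lies at chr11:95069400-95069429 and the second of the HNRNPA1 sites at chr12:54286228-54286257, both on the plus strand. The HNRNPU site lies at chr1:244851579-244851608, that of HNRNPUL2 at chr11:62714221-62714250 and that of HNRNPF at chr10:43385814-43385843, all on the minus strand.
HNRNPA0, first site: ggtcgtttttatACTAGCaaaatgtcttgt
HNRNPA0, second site: gaggtgggacagACTAGCaaaaggcatact
SRSF8: gcttatacctttACTAGCaaagggaaaaat
HNRNPU: gatgttctgagcACTAGCaacaaggtattt
HNRNPUL2: ctgagaatagcaACTAGCaactattttcta
HNRNPA1, second site: ctgactcttaggACTAGCagtcagaaccag
HNRNPF: gtggaaatggtgACTAGCagcacacattct

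The printed sites are the 7, of 10 found in 8 members, in which the word is followed by an A. That shared base comes from how the sites were picked and is not a result. The first HNRNPA1 site, not printed, has no A after the word. The other members that hold the word are HNRNPLL and SRSF11, neither followed by an A. The 8 members with the word had a median log2 fold change of 0.07, from -1.05 for HNRNPA0 to 0.14 for HNRNPA1, and 2 of them were negative, HNRNPA0 and HNRNPUL2. The 24 members without it had a median of 0.10, and 6 were negative. The word was read on the transcript strand only. It occurs in 14.5% of the 13938 tested coding genes with a 3′ UTR, and in 55.7% of the 451 whose 3′ UTR length is within a ratio of 0.8 to that of HNRNPA0, shorter over longer. In UTRs of that length the word is therefore more often present than absent. These shares count any gene with at least 1 site, whatever base follows. No share was computed for genes with 2 sites or for the word followed by an A.

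The closest relatives of HNRNPA0 did not share its difference. HNRNPA1, the most studied splicing silencer of the family, had 2058 and 2035 CPM in the controls, against 2143 and 2361 CPM in the knockdown libraries (log2 fold change 0.14 ± 0.12, 95% interval -0.15 to 0.43). HNRNPA2B1, which binds AG-rich sequences, stood at 1619 and 1665 CPM against 1599 and 1784 CPM (0.04 ± 0.12). The knockdown libraries of HNRNPA1 lay above its controls, and those of HNRNPA2B1 lay on either side of them. HNRNPA3 had 304 and 321 CPM in shCtrl and 314 and 392.3 CPM in shRPRD1B (0.18 ± 0.14), with overlap. Per kilobase of transcript, HNRNPA0 made up 3.93% and 3.88% of the 4 A/B genes in the control libraries and 1.82% and 1.76% in the knockdown libraries. Its control level was 45.4 CPM per kilobase, against 497 for HNRNPA1 and 469.7 for HNRNPA2B1, on the length of 1 annotated transcript per gene. The summed CPM of the 4 genes was 4377 and 4417 in shCtrl and 4239 and 4735 in shRPRD1B. HNRNPA0 made up 396 CPM of that sum in each control library. That part is too small for the total to show its difference beyond the spread between the knockdown libraries.

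The D-like group has 2 RNA recognition motifs per protein and includes HNRNPD (AUF1), a factor in the decay of AU-rich mRNAs. HNRNPD stood at 499.9 and 494 CPM in shCtrl against 526 and 607 CPM in shRPRD1B (0.19 ± 0.12). Its paralogue HNRNPDL stood at 447 and 450.3 against 504 and 486 CPM (0.14 ± 0.11), and HNRNPAB at 870.1 and 837 against 874 and 907 CPM (0.06 ± 0.11). For each of these 3 genes both knockdown libraries lay above both controls and none passed a test (edgeR adjusted p from 0.732 to 0.889).

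The F/H proteins bind runs of guanines beside regulated exons. HNRNPH1 had the largest positive fold change among the 32 members and the least even one among those of at least 5 CPM. It stood at 70.4 and 73.3 CPM in shCtrl, 66.2 CPM in shRPRD1B 1 and 132 CPM in shRPRD1B 2. Its log2 fold change was 0.46 ± 0.31, with an interval from -0.31 to 1.24, and it turned to -0.12 without shRPRD1B 2. HNRNPH3 varied likewise, with 179 and 183 CPM in shCtrl and 152 and 230.2 CPM in shRPRD1B (0.08 ± 0.20). In both genes the control libraries lay between the knockdown libraries. HNRNPF stood at 356 and 348 CPM against 367 and 389.5 CPM (0.11 ± 0.11). HNRNPH2, an X-linked gene, stood at 122 and 121 CPM against 106 and 121 CPM (-0.09 ± 0.12). Part of the HNRNPH2 transcript, 362 bases, is shared with the readthrough gene RPL36A-HNRNPH2 in GENCODE 29.

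The U group centres on HNRNPU (SAF-A), a nuclear scaffold protein that binds both DNA and RNA. HNRNPU itself had 952 and 975 CPM in shCtrl and 876 and 1151 CPM in shRPRD1B (0.07 ± 0.16), with the control libraries between the knockdown libraries. Its relatives differed in opposite directions without passing a test. HNRNPUL1 stood at 473 and 478 CPM against 557 and 580.2 CPM (0.26 ± 0.11, edgeR unadjusted p = 0.0543, adjusted p = 0.677). HNRNPUL2 stood at 30.9 and 33.2 CPM against 22.5 and 27.5 CPM (-0.36 ± 0.15, unadjusted p = 0.0572, adjusted p = 0.677). In both genes the groups did not overlap. The HNRNPUL2 transcript shares 45.7% of its bases with the readthrough gene HNRNPUL2-BSCL2, a row with 0 counts in every library, so its count may miss reads that fall in both.

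HNRNPC, which forms tetramers on uridine-rich nascent RNA, was the most abundant hnRNP gene per kilobase of transcript, at 749 CPM per kilobase in shCtrl and 705 in shRPRD1B. Its counts were 1294 and 1273 CPM against 1244 and 1172 CPM (-0.09 ± 0.11, interval -0.36 to 0.19), both knockdown libraries below both controls. HNRNPK, a KH-domain protein that binds C-rich sequences, stood at 936 and 926 CPM against 951 and 1069 CPM (0.12 ± 0.12). HNRNPM stood at 839 and 803 CPM against 803 and 946 CPM (0.09 ± 0.13). The 95% intervals of all 3 abundant genes included 0.

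HNRNPL and HNRNPR could not be read as levels. HNRNPL, which binds CA repeats and is expressed in most cells, had 11, 10, 10 and 6 counts in shCtrl 1, shCtrl 2, shRPRD1B 1 and shRPRD1B 2, and HNRNPR had 13, 22, 27 and 10. The pseudogene row HNRNPLP2 had 488, 591, 703 and 540 counts, more than its parent gene in every library. The kinase gene CLK2, which is also widely expressed, is likewise near 0 in these tables, and for such genes the counts may not stand for the amount of transcript. Their fold changes (-0.71 ± 0.59 and -0.25 ± 0.58) passed no test. HNRNPLL, the paralogue of HNRNPL known for controlling CD45 exons in lymphocytes, was counted normally, at 64.9 and 64.9 CPM in shCtrl and 69.7 and 66.5 CPM in shRPRD1B (0.07 ± 0.11). HNRNPA1 has the most copies, with 76 pseudogene or like-gene rows that together held between 4.63% and 4.82% as many counts as HNRNPA1 itself. How the authors treated reads that map to several places is not given in the sources used here, which leaves single members with copies uncertain.

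Among the SR genes, SRSF4, SRSF5 and SRSF6 had the 3 largest fold changes. These genes form one branch of the family, with a second, degenerate RNA recognition motif before the arginine/serine-rich domain. SRSF5 (ENSG00000100650.16, chromosome 14, 69726900 to 69772005 on the plus strand of GRCh38) had 257 and 254 CPM in the controls, and the knockdown libraries had 326 and 321 CPM. The groups did not overlap, and the libraries within each group were close. The means were 256 ± 1.65 and 323 ± 3.81 CPM (SD, n = 2 each), a log2 fold change of 0.34 ± 0.10 with an interval from 0.08 to 0.60. It did not pass the test (edgeR unadjusted p = 0.0178, adjusted p = 0.583; DESeq2 adjusted p = 0.406). Its log2 fold change was 0.33 without shRPRD1B 1 and 0.35 without shRPRD1B 2, in fits where the remaining library has no replicate. Without shCtrl 1 it was 0.35 and without shCtrl 2 it was 0.33. Over the other alternatives the adjusted p of SRSF5 went from 0.406 (DESeq2) to 0.703 (edgeR with no low-count filter).

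SRSF6 stood at 162 and 165 CPM in shCtrl, 168 CPM in shRPRD1B 1 and 240.0 CPM in shRPRD1B 2 (0.32 ± 0.18), so its difference rested on shRPRD1B 2. SRSF4 stood at 148 and 153 CPM against 164 and 196 CPM (0.26 ± 0.13, edgeR adjusted p = 0.696). Both knockdown libraries lay above both controls for each of these 3 genes. Their summed CPM was 566 and 573 in shCtrl and 658 and 757 in shRPRD1B, 1.16 and 1.33 times the control mean. The next highest SR group in shRPRD1B 1, SRSF2 with SRSF8, stood at 1.02 times its control mean. In shRPRD1B 2 the gap was smaller, with SRSF2 and SRSF8 at 1.19, SRSF11 at 1.18 and SRSF3 with SRSF7 at 1.16 times their control means. The subfamilies were set with earlier results known, so this order is a description.

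SRSF1, the founding SR protein, and SRSF9, its shorter paralogue, passed no test, and the difference between them was not tested. SRSF1 stood at 132 and 143 CPM against 122 and 177 CPM (0.12 ± 0.19), its control libraries between its knockdown libraries. SRSF9, the most abundant SR gene per kilobase (291 CPM per kilobase in shCtrl, 265 in shRPRD1B), stood at 357 and 342.7 CPM against 342.7 and 294 CPM (-0.13 ± 0.12). Both knockdown libraries lay at or below both controls, with shCtrl 2 and shRPRD1B 1 each at 342.7 CPM. The SRSF1 transcript shares 95.1% of its bases with other GENCODE 29 genes, AC015813.2 on the same strand and AC015813.5 on the opposite strand. That of SRSF9 shares 41.2% with GATC on the opposite strand. The strand setting of the counting is not given in the sources used here.

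SRSF2 (SC35), a component of nuclear speckles, stood at 264 and 256 CPM against 276 and 313 CPM (0.18 ± 0.12), both knockdown libraries above both controls. The SRSF2 transcript shares 33.8% of its bases with MFSD11 on the opposite strand and MIR636 on the same strand. SRSF8, the intronless relative of SRSF2, stood at 84.5 and 81.5 CPM against 73.4 and 93.2 CPM (0.01 ± 0.15). SRSF3 and SRSF7, which also link splicing to mRNA export, gave 598 and 581 against 589.9 and 702 CPM (0.13 ± 0.13), and 295 and 297 against 293 and 322 CPM (0.05 ± 0.11). In the last 3 genes the groups overlapped. SRSF10, a splicing repressor once it is dephosphorylated, stood at 256 and 252 CPM against 244 and 293 CPM (0.08 ± 0.13). SRSF11 stood at 235 and 241 CPM against 234 and 281 CPM (0.11 ± 0.13). SRSF12, the least abundant SR gene per kilobase, stood at 20.8 and 22.5 CPM against 21.5 and 19.6 CPM (-0.07 ± 0.14). Apart from SRSF5, every SR interval included 0.

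The intervals of the fit bound the differences only against the spread between these libraries, which may be technical. Each is a separate 95% interval, and no joint bound over the members was computed. For 28 of the 29 members of at least 5 CPM other than HNRNPA0, the 95% interval lay within a 2-fold change in either direction, the exception being HNRNPH1. For 25 of these 29 the upper bound was under a 1.5-fold increase. The interval included 0 for 28 of them, all but SRSF5. The data therefore do not show that these transcripts were alike in both groups, only that larger differences lie outside the intervals.

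The families as wholes differed little between the groups. The 20 hnRNP genes had a median log2 fold change of 0.07, with 14 positive, and the 12 SR genes a median of 0.12, with 10 positive. The median over all 20319 genes tested was 0.00, and 10257 were positive. Among the 4975 genes with a mean of at least 50 CPM it was 0.02. The difference between the families was not tested. The hnRNP genes summed to 11511 and 11478.5 CPM in shCtrl and 11358 and 12619.5 CPM in shRPRD1B. The SR genes summed to 2807 and 2789.8 CPM against 2855 and 3252.5 CPM. The sums of shRPRD1B 1 were 0.988 and 1.02 times the control mean, and those of shRPRD1B 2 were 1.098 and 1.16 times.

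The positive medians of the families came mostly from 1 library, though for 12 members both knockdown libraries lay above both controls. The median deviation from the control mean was -0.01 in shRPRD1B 1 for both families, and 0.13 for the hnRNP genes and 0.25 for the SR genes in shRPRD1B 2. The value in shRPRD1B 2 was above that in shRPRD1B 1 for 24 of the 32 members (75.0%), for 49.6% of all genes tested and for 57.4% of genes of at least 50 CPM. Without shRPRD1B 2 the median log2 fold change was -0.01 for each family, and without shRPRD1B 1 it was 0.14 for the hnRNP and 0.25 for the SR genes. The SD of the log2 ratio between the knockdown libraries was 0.34 over the members, against 0.13 between the control libraries. Across 10769 tested coding genes of at least 5 CPM, the ratio of shRPRD1B 2 to shRPRD1B 1 moved with transcript length. Its median log2 value was -0.17 in the shortest 3590 genes and 0.20 in the longest 3590. Spearman's rho was 0.43 across genes, which are not independent replicates. The ratio of shCtrl 2 to shCtrl 1 gave a rho of 0.39, so the relation was not particular to the knockdown libraries. The median log2 fold change between the groups was -0.06 in the shortest genes and 0.10 in the longest. Across the 30 members of at least 5 CPM rho was 0.10 for the knockdown libraries and 0.20 for the control libraries. The part of transcript length in the members' values was not tested.

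**Figure D2:**
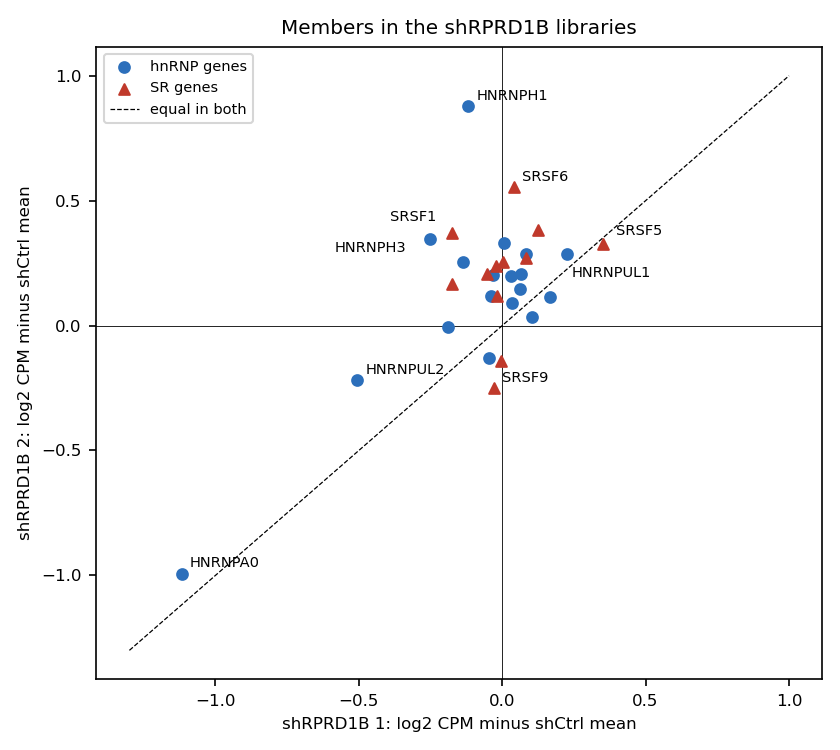
log2 CPM minus the mean of the shCtrl libraries for the 30 members of at least 5 CPM, in shRPRD1B 1 (horizontal axis) and shRPRD1B 2 (vertical axis), with hnRNP genes as blue circles, SR genes as red triangles and a dashed line where both libraries are equal. HNRNPA0, HNRNPUL1 and SRSF5 lie near the dashed line and away from 0, while most other members lie above the line.

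Other genes of the splicing pathway were taken from lists chosen with earlier results of these data known, so their counts below are descriptions. edgeR, DESeq2 and limma voom called none of the genes in these lists. The SR-related proteins share arginine/serine-rich domains with the SR proteins. Of these 15 genes 12 were positive, with a median of 0.24, and 4 were higher at an unadjusted edgeR p under 0.05, as were 3.55% of all genes: SRRM1, PNN, THRAP3 and LUC7L3. PNN (pinin), a nuclear speckle protein of the exon junction periphery, stood at 269.6 and 273 CPM in shCtrl against 327 and 389.7 CPM in shRPRD1B (0.40 ± 0.13, adjusted p = 0.604). SRRM1, a splicing coactivator, stood at 152 and 158 CPM against 187 and 238 CPM (0.46 ± 0.15, adjusted p = 0.604). As in the SR family, most of the 15 were higher in shRPRD1B 2 than in shRPRD1B 1, 14 of them (93.3%), against 49.6% of all genes tested. The list's median deviation from the control mean was 0.00 in shRPRD1B 1 and 0.35 in shRPRD1B 2.

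Kinases that phosphorylate SR proteins control their import and release from speckles. Of 7 listed, 6 were tested, 4 were positive and the median was 0.19, or 0.36 without shRPRD1B 1 and 0.07 without shRPRD1B 2. CLK1 stood at 32.3 and 35.2 CPM against 41.0 and 52.8 CPM (0.47 ± 0.16, edgeR adjusted p = 0.635) and CLK4 at 21.2 and 22.05 CPM against 24.2 and 32.3 CPM (0.38 ± 0.18). CLK2 had too few counts to be tested. The kinases SRPK1 (0.19 ± 0.13) and SRPK2 (-0.10 ± 0.12) act mainly in the cytoplasm. Among 7 hnRNP proteins known under other symbols, the median was 0.08, which was 0.29 without shRPRD1B 1, -0.07 without shRPRD1B 2 and 0.02 with limma voom. PTBP1, the polypyrimidine tract-binding repressor, stood at 861 and 866 CPM against 601 and 765 CPM (-0.34 ± 0.15, adjusted p = 0.682), and PCBP2, a KH-domain protein, at 207 and 206 CPM against 236 and 253 CPM (0.24 ± 0.11, adjusted p = 0.682).

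The 25 proteins of the U1 and U2 particles and U2AF had a median of 0.02, with 14 positive and 1 higher at an unadjusted p under 0.05. That gene was U2AF1, which recognises the 3′ splice site AG, at 6.46 and 6.39 CPM against 9.004 and 14.2 CPM (0.85 ± 0.26, edgeR adjusted p = 0.587). U2AF2 stood far higher, at 598 and 586 CPM in shCtrl against 678 and 645 CPM in shRPRD1B. The handling of reads with several matches is not given, and the count of U2AF1 may not stand for its amount of transcript. SNRPA1, a U2 particle protein, stood at 150.2 and 153 CPM against 133 and 113 CPM (-0.30 ± 0.12, adjusted p = 0.677). Unlike in the SR and SR-related lists, 9 of these 25 (36%) were higher in shRPRD1B 2 than in shRPRD1B 1. That held for 49.6% of all genes tested and 57.4% of genes of at least 50 CPM. The difference between lists and the part of transcript length in it were not tested. The 14 nonsense-mediated decay and exon junction factors had 13 positive values and a median of 0.12. That pattern rested on shRPRD1B 2: the median was 0.36 without shRPRD1B 1 and -0.08 without shRPRD1B 2. The list includes SMG6, the endonuclease of the pathway, at 27.2 and 29.7 CPM against 35.5 and 42.3 CPM (0.45 ± 0.14, adjusted p = 0.604) and the helicase gene UPF1 at 0.28 ± 0.14. The 6 import receptors and arginine methyltransferases had a median of 0.02, or 0.11 without shRPRD1B 1. TNPO1, the receptor that imports hnRNP A1, gave 0.34 ± 0.17, TNPO3, the receptor for SR proteins, -0.01 ± 0.16, and PRMT1, the main methyltransferase of hnRNP proteins, -0.08 ± 0.12.

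**Figure D3:**
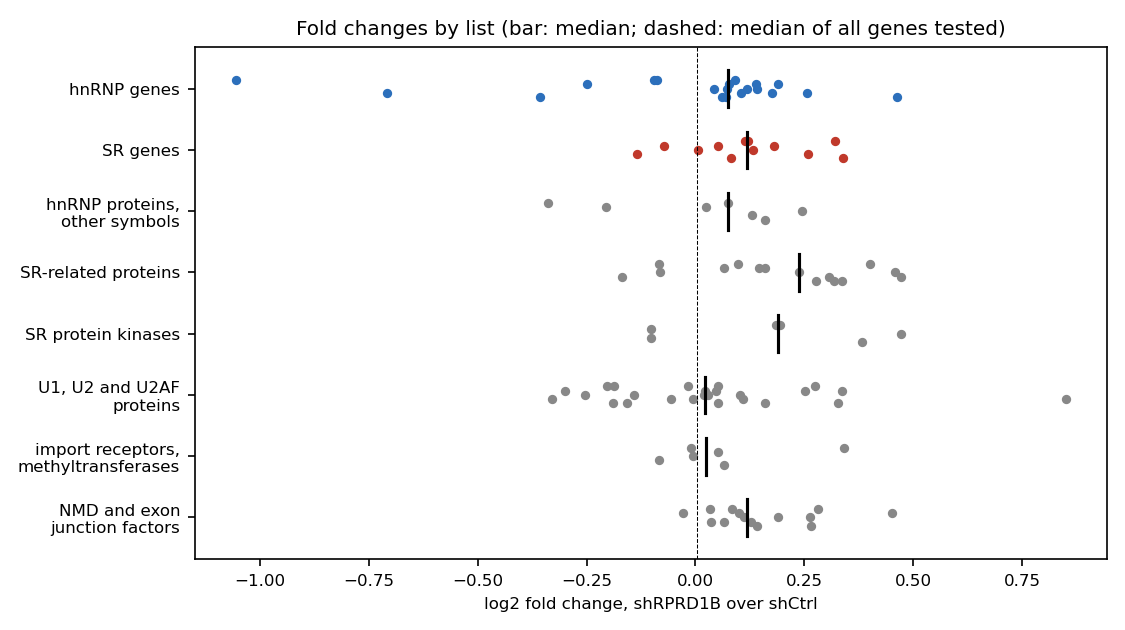
Fitted log2 fold change of shRPRD1B over shCtrl for each tested gene of the 2 families and of 6 other splicing lists, 1 point per gene, with a bar at the median of each list and a dashed line at the median of all genes tested. The medians lie between 0.02 and 0.24, and HNRNPA0 is the leftmost point.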

How the data were processed

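Whole-number read counts per gene were deposited by the authors for 4 libraries, 1 table each. Reads were trimmed with Trim Galore, aligned to hg38 with HISAT2 and counted with featureCounts, per the submitters' processing notes. The sources used here give no versions, no annotation release, no strand setting and no rule for reads with several matches. Gene symbols came from an Ensembl table, which matched 62686 of 69222 rows. Transcript lengths, overlaps and 3′ UTRs came from GENCODE 29 (GRCh38), with 1 transcript per gene, the principal and then the longest one.

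The 2 shRPRD1B and 2 shCtrl libraries were compared in R 4.3.3 with edgeR 4.0.16, using TMM scaling, a minimum count of 10 (filterByExpr), a robust quasi-likelihood fit and Benjamini-Hochberg adjustment over the 20319 genes that passed, with a call at an adjusted p under 0.05. Printed CPM (counts per 1000000) used TMM-scaled library sizes. The scripts were tested on simulated data. DESeq2 1.42.0, limma voom 3.58.1, other scaling factors, other filters, a replicate block, an older edgeR quasi-likelihood fit (chosen after seeing the data) and leaving out each library were alternatives. All 32 members are reported, with fits printed for those with an unadjusted p under 0.05, the extremes and the most abundant of each family, and from each other list the 2 genes with the smallest p. The members, lists and subfamilies were chosen with earlier results of these data known, and further list genes (THRAP3, LUC7L3, SRPK1, SRPK2, TNPO3) were named after their values were seen. No values were left out.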

Additional observations from a re-analysis of the deposited data

How the results depend on the processing

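The log2 fold change of HNRNPA0 stayed between -1.12 and -0.99 under every alternative. RPRD1B was called with DESeq2 (-0.68) and lay between -0.88 and -0.50 when single libraries were left out. The numbers of genes called higher and lower, 6 and 8 in the main edgeR test, were 126 and 114 with DESeq2, 0 and 0 with limma voom (1449 at an unadjusted p under 0.05), 23 and 17 with no low-count filter, 0 and 0 with at least 5 CPM in 2 libraries, and 3 lower with the older edgeR fit. With the replicate number as a block they were 85 and 56. The numbers mark no stated pairing (correlation of same-numbered deviations 0.15, with 2 pairs). Leaving out single libraries gave 12 to 3139 genes higher and 36 to 3096 lower. Among the members, 1 was called lower with DESeq2, with no low-count filter and with the replicate block, each time HNRNPA0. In the fits with a library left out, the single library left in a group takes its spread from the other group. Calls of members in those fits are therefore not counted here. Without shRPRD1B 1 and without shRPRD1B 2, the log2 fold change was 0.29 and 0.23 for HNRNPUL1. It was 0.33 and 0.35 for SRSF5, and -0.22 and -0.50 for HNRNPUL2. The cause of these differences between fits was not tested.

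The fold changes of 11 members changed sign when shRPRD1B 2 was left out. Over the 4 fits with a library left out, the log2 fold change went from -0.036 to 0.12 for HNRNPA2B1, -0.12 to 0.88 for HNRNPH1, -0.25 to 0.35 for HNRNPH3, -0.031 to 0.21 for HNRNPM, -0.99 to 0.18 for HNRNPR, -0.14 to 0.26 for HNRNPU, -0.17 to 0.37 for SRSF1, -0.015 to 0.12 for SRSF7, -0.17 to 0.17 for SRSF8, -0.052 to 0.21 for SRSF10 and -0.019 to 0.24 for SRSF11. HNRNPR also changed sign without shCtrl 2 (0.15), and SRSF8 did so without shCtrl 2 (-0.021). SRSF8 was negative with upper-quartile factors (-0.022), limma voom (-0.0066), the filter of 5 CPM (-0.0063) and the replicate block (-0.0044). The filter of 5 CPM removed HNRNPL and HNRNPR. HNRNPL and HNRNPR had at most 27 counts in any library, which limits the precision of their fold changes.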

Other observations

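Rows for copies of the members were counted apart from them. There were 143 rows of pseudogenes or like-named genes for 21 members. Of these, 49 had no count in any library and 9 had a mean above 100 counts.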
